A study of Mus musculus with 8 samples.

Results

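The genes that build the actin, tubulin and vimentin cytoskeleton were followed through single endocardium cells of the mouse heart tube at embryonic day (E) 8.5. They were chosen by name: all genes on the array whose name starts with *Tuba*, *Tubb*, *Arpc* or *Capz*, together with *Actb*, *Actg1*, *Acta2*, *Actr2*, *Actr3*, *Cfl1*, *Cfl2*, *Pfn1*, *Pfn2*, *Tmsb4x*, *Tmsb10*, *Myl6*, *Myl12a*, *Myl12b*, *Myh9*, *Myh10* and *Vim*. This rule found 46 of the 35715 gene names on the array, and 45 of them had a usable probe on all 8 arrays (68 of 55295 probes). *Tuba8* was left out, since its probe had no usable spot on at least 1 array. Where a gene had several probes, the probe with the highest mean signal over the 8 arrays stands for it.

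The cDNA of 1 cell was amplified and transcribed into RNA for each array, and all cells came from embryos with 9 somites. The 4 WT cells had the genotype Mesp1+/+ and Sox17 flox/flox, and the 4 KO cells were Mesp1Cre/+ and Sox17 flox/flox, so that both groups carried floxed *Sox17* alleles and differed at *Mesp1* as well as in *Sox17* deletion. The Cre gene under *Mesp1* acts in nascent mesoderm and therefore in all cardiac lineages and not only in the endocardium. Cells were picked by hand after trypsin treatment, and the cell type of each cDNA was decided from marker genes measured by PCR. Because no source names the embryo a cell came from, each genotype was treated as a single sample. Every cell has its own value below, and a difference is the KO mean minus the WT mean on the log2 scale (n = 4 cells each), set beside the pooled SD of the cells within genotypes, with no test and no p-value.

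Actin and tubulin are abundant proteins that polymerize into filaments and microtubules, and every animal cell depends on them for its shape, division and transport. Branched actin networks are started by the Arp2/3 complex, filament ends are closed by capping protein, and cofilin, profilin and thymosin beta set the exchange between filaments and free monomers, while non-muscle myosin II pulls on the filaments. Endothelial cells, of which the endocardium is the cardiac form, carry vimentin intermediate filaments and express the non-muscle actins, whereas smooth muscle actin (*Acta2*) is known in smooth muscle and in embryonic cardiomyocytes.

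Many of these genes have near-identical family members or processed copies elsewhere in the genome, and each value below was read by a single probe of 60 bases. The probes that the largest differences and the highest signals rest on are shown by their first 30 bases, 5′ to 3′, as the array design gives them, with the position that the design gives for the probe on mm9 and its strand. The positions given for *Tuba1a* and *Tubb2a* span fewer than 60 bases.
Myl6, chr10:127927918-127927977, minus strand: catttggtttcttttggatgatgtttgcct
Myl12a, chr17:71343750-71343809, minus strand: atgtaccttataatactggaaatgggacct
Myl12b, chr17:71323508-71323567, minus strand: ctcagtcacttcccctcccccatagggcct
Arpc1a, position not given in the design: caaattttgcactactggcattgatggagc
Tuba1a, chr15:98780307-98780364, minus strand: ttcatacagttactgacttatgaatgattg
Tuba1b, chr13:113383856-113383915, minus strand: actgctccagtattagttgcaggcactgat
Tubb2a, chr13:34166253-34166311, minus strand: cttagtgaacttctgttgtcctccagcatt
Tubb4b, chr1:24600890-24600949, minus strand: tttgaggaggaggctgaggaggaggaggtg
Actg1, brightest probe, chr16:64917216-64917275, minus strand: gggaacgtttgcatcgacacctgtaaatgt
Actg1, probe at the gene itself, chr11:120208409-120208468, minus strand: gactacctcatgaagatcctgactgaacgg
The neighbouring genes *Myl12a* and *Myl12b* on chromosome 17 were read by unrelated probes. Among the probes of the 45 genes, only those of *Tuba3a* and *Tuba3b* had a long run in common, of 28 bases, and the next longest run shared by any pair was 12 bases. Of the 45 probes, 36 lie on the chromosome of their gene, that of *Arpc1a* has no position, and 8 lie on another chromosome (*Actg1*, *Actr3*, *Arpc1b*, *Capza1*, *Pfn1*, *Tmsb10*, *Tuba1b* and *Tubb4b*). It was not tested whether these 8 read transcripts of a second locus.

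The number of probes well above background, which stands for the depth of an array, lay between 11370 and 18175 of 55295. WT cell 1 had the lowest number, its scanner report was marked for evaluation, and its replicate spots had a median coefficient of variation of 13.7%, against 6.18% to 8.90% for the other cells. Arrays were scaled to each other, scaled signals under 50 were set to 50 (5.64 on the log2 scale, called the floor below), and cells at the floor have no order. All arrays were on 1 slide. The number after the slide name in the array barcode was 1 for all WT cells and 2 for all KO cells. Genotype cannot be told apart from what this number stands for. Both *Sox17* probes stayed at the floor on all 8 arrays, so the deletion could not be checked. Between 6 and 10 of 10 endocardium or endothelium markers were well above background in each cell, and between 3 and 8 of 9 cardiomyocyte markers. The summed scaled signal of the cardiomyocyte markers ranged from 370 (WT cell 1) to 46258 (WT cell 2) in WT cells. In KO cells it ranged from 1010 (KO cell 2) to 48736 (KO cell 1). It exceeded the sum of the endocardium or endothelium markers in WT cell 2 (46258 against 10037), KO cell 1 (48736 against 7045) and KO cell 4 (28950 against 13906). In the other cells it was below that sum. In KO cell 1, *Actc1* alone gave 41042 of the 48736. No marker of blood or endoderm rose above the floor in any cell.

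Between 66.7% and 86.7% of the 45 genes were well above background in a cell. Over all 35526 gene names with a usable probe, each also read by its brightest probe, this share was 25.5% to 39.9%. In WT cells 1 to 4 this was 30, 37, 36 and 39 of the 45 genes, and in KO cells 1 to 4 it was 37, 31, 34 and 39, so that the genotypes overlapped. In all 8 cells 28 of the genes were well above background, and 3, among them *Capza3* and *Pfn2*, were so in none. The scaled signals of the 45 genes added up to between 0.555% (KO cell 1) and 1.12% (KO cell 2) of the total of an array. KO cell 2 held the highest value for 14 of the 45 genes where each other cell held it for 2 to 4. The 6 genes at the floor in all cells had no highest cell. The same count was not made over all probes, so it cannot be read as particular to these genes.

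**Figure D1:**
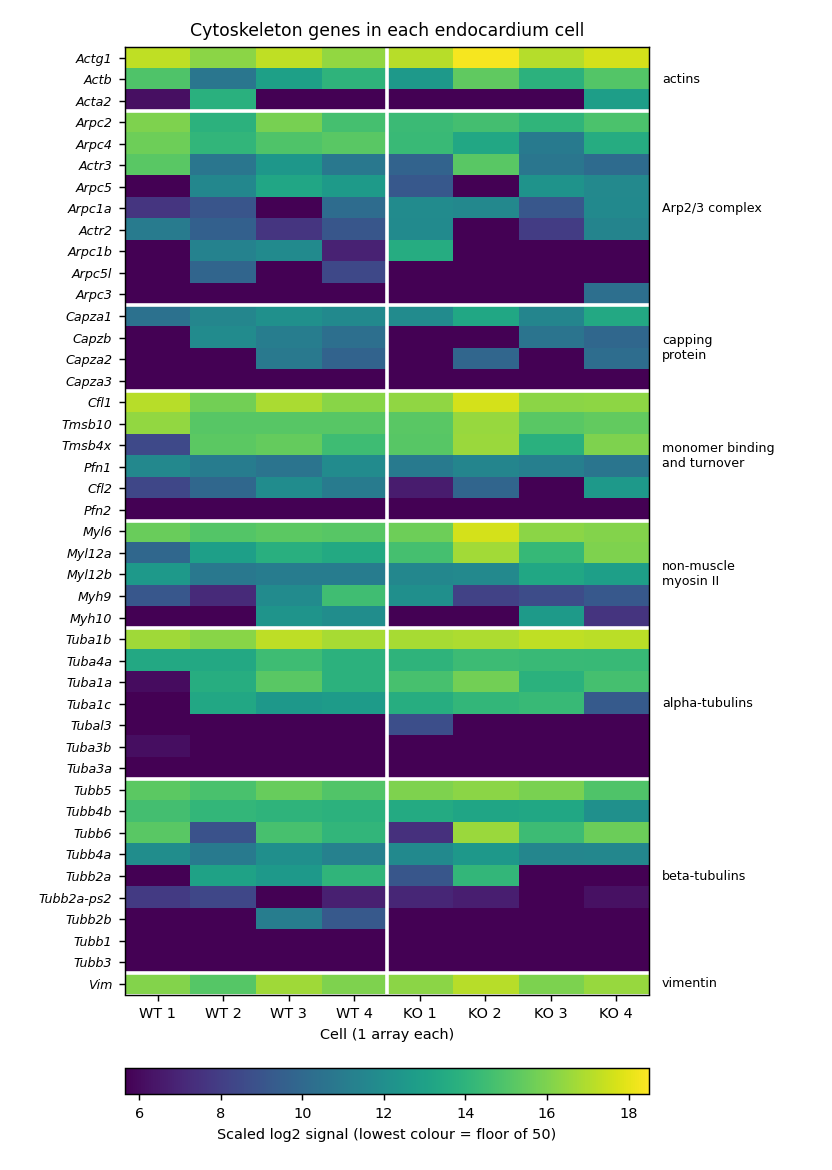
Scaled log2 signal of 44 of the 45 cytoskeleton genes (rows, grouped by role and ordered by mean signal within a group) in each of the 8 cells (columns, WT cells 1 to 4 and KO cells 1 to 4). *Actg1*, *Tuba1b*, *Cfl1* and *Vim* were bright in every cell, whereas *Acta2*, *Myh10*, *Tubb2a* and several Arp2/3 genes were bright in some cells and at the floor (darkest colour) in others.

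Among the actins, gamma-actin was bright and even in all cells, beta-actin varied, and smooth muscle actin was bright in a single cell of each genotype. *Actg1*, encoding cytoplasmic gamma-actin, had log2 signals of 17.27, 16.27, 17.27 and 16.42 in WT cells 1 to 4 and of 17.11, 18.32, 17.05 and 17.66 in KO cells 1 to 4. The genotypes overlapped, with KO cell 2 highest and WT cell 2 lowest, and the difference of 0.73 was larger than the SD between cells of 0.56. This difference fell to 0.34 under the 75th percentile and to 0.20 under quantile scaling. The 725 probes with a mean log2 signal of at least 15, as *Actg1* had, differed by a median of 0.63. *Actb*, encoding cytoplasmic beta-actin, stood at 14.95, 10.69, 12.93 and 14.01 in WT and at 12.62, 15.38, 13.93 and 15.06 in KO cells. Here the cells of a genotype were spread over several log2 units, and the difference of 1.10 was smaller than the SD of 1.57.

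*Acta2* had signals of 6.15, 13.80, 5.64 and 5.64 in WT and of 5.64, 5.64, 5.64 and 12.86 in KO cells. Only WT cell 2 and KO cell 4 were bright, and the difference of -0.36 was small against an SD of 3.81. The scanner called its probe well above background in all 8 cells, 5 of which were at the floor after scaling. The smooth muscle markers, of which *Acta2* is 1 of 3, summed to 14376 in WT cell 2 and 7724 in KO cell 4. In the other cells they summed to 57.3 to 270. Nearly all of the 2 high sums was *Acta2* itself, with scaled signals of 14307 and 7424, so they add nothing to its own values. *Tagln* had scaled signals of 68.4 in WT cell 2 and 297 in KO cell 4, against 39.1 to 194 in the others. *Cnn1* was at the floor in all 8 cells. Cardiomyocyte markers summed to 46258 in WT cell 2 and 28950 in KO cell 4. KO cell 1, with the highest sum of 48736, had *Acta2* at the floor. Most of that sum was *Actc1* (41042) and *Myl4* (7357). *Actn2*, *Myh6*, *Myl2*, *Tnnt2* and *Nkx2-5* were at the floor in KO cell 1. The part of other cell types in these values was not tested.

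Subunits of the Arp2/3 complex, which nucleates branched actin filaments, ranged from bright in every cell to detected in a single cell. *Arpc2*, a core subunit, had signals of 16.03, 13.91, 15.86 and 14.73 in WT and of 14.40, 14.66, 14.08 and 14.85 in KO cells. The WT cells spanned the KO cells, and the difference of -0.63 was within the SD of 0.75. *Arpc4*, the subunit that pairs with *Arpc2*, lay between 14.09 and 15.68 in WT and between 10.90 and 14.34 in KO cells (difference -1.93, SD 1.16), and the genotypes overlapped only through KO cell 1 (14.34) and WT cell 2 (14.09). They did not overlap for *Arpc4* under the 75th percentile, the percentile of all probes, quantile scaling and normexp, and it was at least 5-fold lower in KO cells under quantile scaling.

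*Arpc1a*, 1 of 2 alternative forms of the Arpc1 subunit, had signals of 7.65, 9.06, 5.64 and 10.18 in WT and of 11.82, 11.64, 9.13 and 11.76 in KO cells. KO cells 1, 2 and 4 were above all WT cells and KO cell 3 was not. The difference was 2.96 (7.76-fold, SD 1.66), and it fell to 2.13 without WT cell 3. The alternative form *Arpc1b* had signals of 5.64, 11.33, 11.77 and 6.88 in WT and of 13.60 followed by the floor in 3 KO cells. Its difference of -1.27 was small against an SD of 3.56, and its brightest cell was a KO cell. The *Arpc1b* probe is placed on chromosome 13 while the gene is on chromosome 5, and the *Arpc1a* probe has no position. KO cell 1 alone held both forms at a high signal among the KO cells.

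The remaining subunits did not separate the genotypes. The actin-related proteins at the core of the complex, *Actr2* and *Actr3*, differed by -0.13 (SD 2.30) and -0.84 (SD 2.33), with *Actr2* at the floor in KO cell 2 and *Actr3* at 15.19 in WT cell 1 and 15.22 in KO cell 2 and at 9.74 to 12.44 in the others. *Arpc5* was at the floor in WT cell 1 and KO cell 2 and at 9.20 to 13.25 elsewhere, and its paralog *Arpc5l* rose above the floor in WT cells 2 and 4 only. *Arpc3* was well above background in 1 cell, KO cell 4 (10.36), on the probe used. Its other probes were at the floor in KO cell 4 and above it only in KO cell 3 (6.45 and 6.27). Each had a Pearson's r of -0.14 with the probe used. On the probe used, all WT cells and the other KO cells were at the floor. The floored KO mean of *Arpc3* was 2.27-fold higher, which is not a bound and rests on KO cell 4. Of the 9 subunits, 2 had a higher mean in KO and 7 in WT cells. The median signal over the subunits differed by -0.58 (SD 2.35), and by -1.38 to 0.71 when any 1 cell was left out, so no direction of the complex can be given.

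Capping protein, a dimer of an alpha and a beta subunit that blocks the fast-growing filament end, was measured by 4 genes. *Capza1* was above the floor in all cells, at 10.45 to 12.10 in WT and 11.51 to 13.42 in KO cells (difference 1.06, SD 0.86). This probe lies on chromosome 9, while the gene is on chromosome 3, and the brightest probe on chromosome 3 differed by -0.23, with a Pearson's r of 0.35 with the first over the 8 cells. *Capza2* and *Capzb* were each at the floor in cells of both genotypes (differences -0.10 and -1.77, SD 2.64 and 2.74), and *Capza3*, a form known from testis, was well above background in none.

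Cofilin 1 and thymosin beta 10 were bright in every cell, and thymosin beta 4 was bright in all but 1. *Cfl1*, the main non-muscle cofilin, which severs actin filaments, had signals of 17.12, 15.77, 16.85 and 16.20 in WT and of 16.39, 17.66, 16.25 and 16.33 in KO cells (difference 0.17, SD 0.64). *Tmsb10*, an actin monomer binder, stood at 16.43, 15.18, 15.17 and 15.15 in WT and at 15.19, 16.51, 15.22 and 15.41 in KO cells (difference 0.10, SD 0.63). For both genes 1 cell was raised above an otherwise narrow group, WT cell 1 and KO cell 2 for *Tmsb10* and KO cell 2 for *Cfl1*, and the sign of both small differences turned under 3 of the other scalings of the arrays.

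*Tmsb4x*, the main sequestering protein of actin monomers, had signals of 8.50, 15.28, 15.45 and 14.53 in WT and of 15.18, 16.55, 13.79 and 16.04 in KO cells. WT cell 1 stood far below all others, which otherwise overlapped. The difference of 1.95 (SD 2.50) accordingly became 0.31 without WT cell 1. *Cfl2*, the muscle form of cofilin, varied from the floor to 12.56 (difference -1.64, SD 2.47). *Pfn1*, which loads actin monomers with ATP, was narrow at 10.61 to 11.85 in all cells (difference -0.23, SD 0.47), and *Pfn2*, the profilin best known from neurons, was at the floor throughout.

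Of non-muscle myosin II, 2 light chains were higher in every KO cell than in every WT cell, which held for 0.532% of all probes, while the heavy chains did not separate the genotypes. Over the 4108 probes above the floor in all 8 cells, to which both light chains belong, the share was 5.33%. Over the 725 probes with a mean log2 signal of at least 15, as *Myl6* had, it was 10.3%. *Myl6*, the essential light chain, had signals of 15.57, 15.07, 15.26 and 15.17 in WT and of 15.68, 17.67, 16.27 and 16.13 in KO cells. Every KO cell was above every WT cell, although KO cell 1 exceeded WT cell 1 only narrowly. The difference was 1.17 (2.25-fold, SD 0.63), and it stayed between 0.76 and 1.42 when any 1 cell was left out. A second *Myl6* probe, placed on chromosome 14, differed by 1.06 and also left no overlap. Under 3 of the other scalings (75th percentile, percentile of all probes and quantile) the *Myl6* cells of the genotypes overlapped.

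*Myl12a*, a regulatory light chain whose phosphorylation switches the motor on, had signals of 9.96, 12.91, 13.78 and 13.47 in WT and of 14.73, 16.71, 14.25 and 16.02 in KO cells. The genotypes did not overlap, with WT cell 1 lowest and KO cell 2 highest. The difference was 2.90 (7.46-fold, SD 1.47), and 2.04 without WT cell 1, which is below 5-fold, as was the difference under quantile scaling (2.0). The cells of both genotypes stayed apart under each scaling and floor tried. *Myl12b*, the neighbouring gene for a near-identical light chain, lay at 10.77 to 12.61 in WT and 11.58 to 13.32 in KO cells (difference 1.0, SD 0.85). WT cell 1 was the highest WT cell for *Myl12b* and the lowest for *Myl12a*, and without it no KO cell reached down to a WT cell for *Myl12b* either.

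*Myh9*, encoding heavy chain IIA, had signals of 9.12, 7.19, 11.85 and 14.56 in WT and of 12.06, 8.19, 8.63 and 9.20 in KO cells (difference -1.16, SD 2.59). *Myh10*, encoding heavy chain IIB, was at 5.64, 5.64, 12.28 and 11.93 in WT and at 5.64, 5.64, 12.65 and 7.58 in KO cells (difference -1.0, SD 3.53). Both heavy chains varied more within a genotype than between the genotypes, and without WT cell 4 the differences were 0.13 and 0.02.

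**Figure D2:**
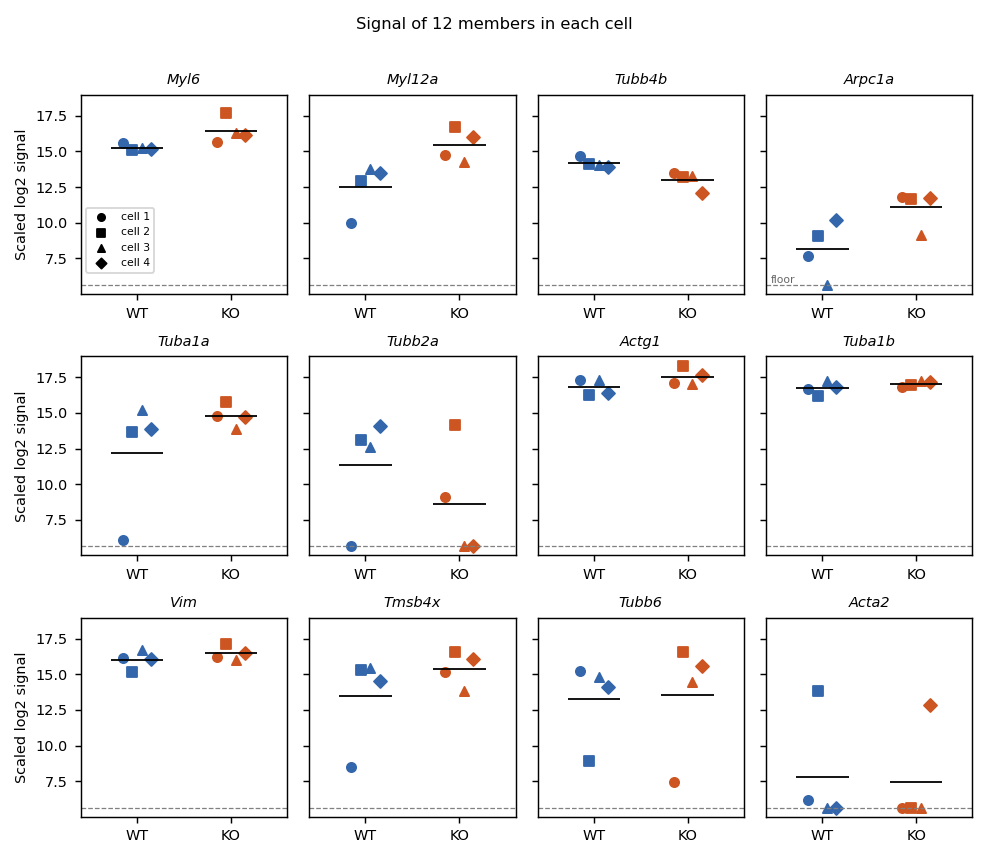
Scaled log2 signal of 12 genes in each cell (WT blue, KO orange; marker shape gives the cell number, horizontal lines are means of 4 cells, the dashed line is the floor). *Myl6* and *Myl12a* were higher and *Tubb4b* lower in every KO cell than in every WT cell, *Tuba1a* and *Tmsb4x* differed mainly through WT cell 1, and *Acta2* was bright only in WT cell 2 and KO cell 4.

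Alpha-tubulins, which pair with beta-tubulins to form the subunit of microtubules, divided into 2 genes that were even in all cells and 2 that were not. *Tuba1b*, a widely expressed form, had signals of 16.66, 16.20, 17.24 and 16.82 in WT and of 16.79, 16.94, 17.25 and 17.18 in KO cells. It was the member above the floor in all cells with the smallest SD, 0.34, and its difference of 0.31 was within that SD and turned negative under the 75th percentile and quantile scalings. *Tuba4a* was nearly as even, at 13.38, 13.41, 14.51 and 13.91 in WT and at 14, 14.47, 14.35 and 14.31 in KO cells (difference 0.48, SD 0.40), and turned to -0.13 under quantile scaling.

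*Tuba1a*, the form best known from developing neurons, had signals of 6.09, 13.67, 15.21 and 13.89 in WT and of 14.77, 15.79, 13.85 and 14.72 in KO cells. The signal of WT cell 1 was near the floor and all other cells lay together between 13.67 and 15.79. The difference of 2.57 (5.92-fold, SD 2.98) was thus 0.52 without WT cell 1, and 2.23, below 5-fold, without KO cell 2. It also fell below 5-fold under 5 other settings, to between 1.57 (quantile scaling) and 2.18 (75th percentile). *Tuba1c* also was at the floor in WT cell 1, at 12.51 to 13.37 in the other WT cells, at 13.67 to 14.32 in KO cells 1 to 3 and at 9.27 in KO cell 4. Its difference of 1.80 (SD 3.08) was -0.01 without WT cell 1.

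The other alpha-tubulin genes were close to or at the floor. *Tuba3a*, a testis form, was at the floor in all 8 cells, and *Tuba3b* was so in 7, with 6.14 in WT cell 1, although the scanner called both well above background in all cells. Since their probes share 28 bases, the genes cannot be told apart with certainty. *Tubal3* was well above background in KO cell 1 alone (8.71), with all other cells at the floor. Its floored KO mean was 1.70-fold higher, which is not a bound.

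Among the beta-tubulins, 1 gene was lower in every KO cell than in every WT cell, which held for 0.118% of all probes. Over the 4108 probes above the floor in all 8 cells, to which this gene belongs, the share was 0.341%. *Tubb4b*, a widely expressed form also used in cilia, had signals of 14.66, 14.15, 14.02 and 13.90 in WT and of 13.50, 13.18, 13.30 and 12.11 in KO cells. All KO cells were below all WT cells, and the difference of -1.16 (2.24-fold, SD 0.50) stayed between -1.32 and -0.86 when any 1 cell was left out. This probe, the only one of the gene, is placed on chromosome 1 whereas *Tubb4b* is on chromosome 2. With arrays scaled to the percentile of all probes, the genotypes overlapped for *Tubb4b*.

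*Tubb5*, the main beta-tubulin of dividing cells, had signals of 15.28, 14.80, 15.53 and 15.02 in WT and of 16.01, 16.28, 15.91 and 14.97 in KO cells. KO cells 1 to 3 were above all WT cells and KO cell 4 was not, with a difference of 0.64 against an SD of 0.46. This difference fell to 0.25 under the 75th percentile and to 0.04 under quantile scaling. The 725 probes with a mean log2 signal of at least 15, as *Tubb5* had, differed by a median of 0.63. *Tubb4a* was even at 10.93 to 12.51 in all cells (difference 0.31, SD 0.48).

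*Tubb2a* was present or absent from cell to cell, with signals of 5.64, 13.08, 12.59 and 14.05 in WT and of 9.09, 14.16, 5.64 and 5.64 in KO cells. KO cell 2 was the brightest of all, and WT cell 1 and KO cells 3 and 4 were at the floor, so that the genotypes overlapped fully. The difference of -2.71 (6.52-fold, SD 3.94) became -4.60 without WT cell 1 and fell below 5-fold without WT cell 2 (-2.13), WT cell 3 (-2.29), WT cell 4 (-1.80), KO cell 3 or KO cell 4 (-1.71 each), and with a floor of 200 (-2.21). *Tubb6* likewise had signals of 15.22, 8.90, 14.78 and 14.09 in WT and of 7.42, 16.56, 14.47 and 15.59 in KO cells (difference 0.26, SD 3.59). WT cell 2 and KO cell 1 were low and the 6 others high. *Tubb2b* was above the floor in WT cells 3 (11.09) and 4 (9.24) only, and *Tubb1* and *Tubb3*, forms of platelets and neurons, were at the floor throughout.

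Vimentin, the intermediate filament protein of mesenchymal and endothelial cells, was bright in all cells. *Vim* had signals of 16.14, 15.13, 16.69 and 16.03 in WT and of 16.24, 17.14, 15.96 and 16.50 in KO cells. The genotypes overlapped, and the difference of 0.46 was within the SD of 0.58 and turned to -0.22 under quantile scaling.

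**Figure D3:**
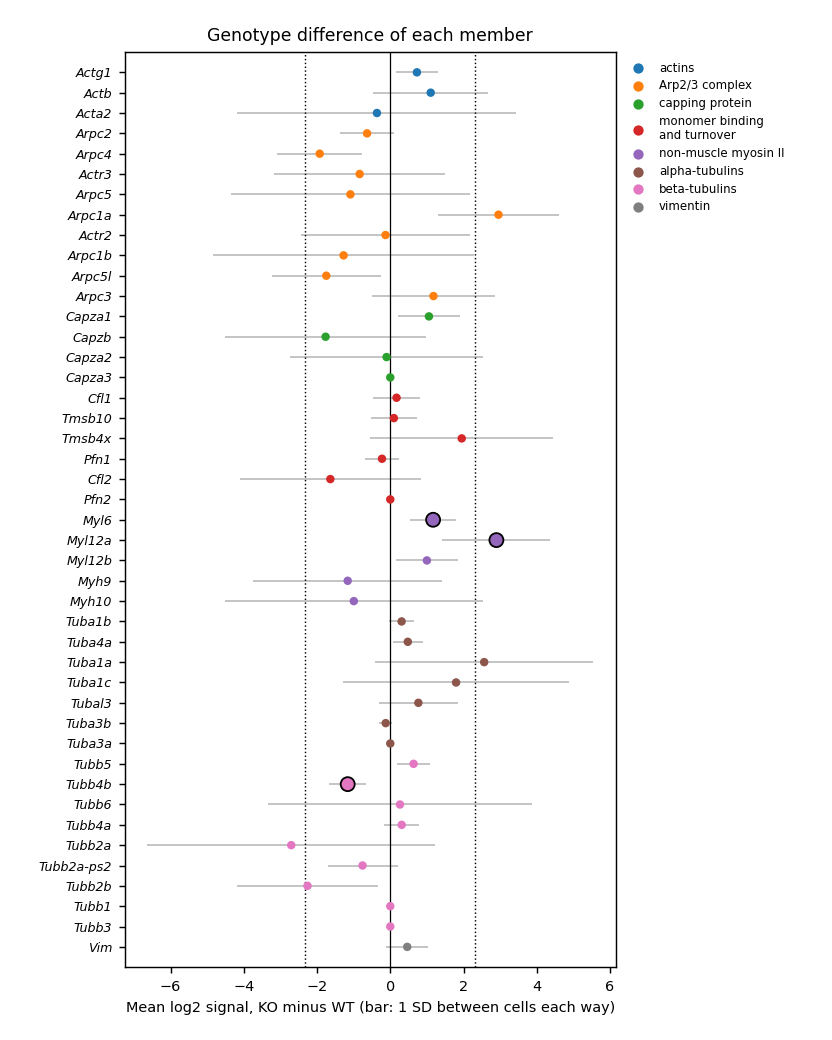
Difference of mean log2 signal (KO minus WT) of 44 of the 45 genes, coloured by role, with a grey bar of 1 SD between cells to each side. Dotted lines mark 5-fold, and large outlined points mark the genes whose genotypes did not overlap, *Myl6* and *Myl12a* (higher in KO) and *Tubb4b* (lower in KO).

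Counted over all 45 genes, the means differed by at least 5-fold for 3 genes with the higher signal in KO cells (*Arpc1a*, *Myl12a* and *Tuba1a*) and for 1 with the higher signal in WT cells (*Tubb2a*). Among all probes, 1.37% were at least 5-fold higher and 1.38% at least 5-fold lower in KO cells, and among the 26833 probes well above background in at least 1 cell these shares were 2.83% and 2.85%. Every KO cell was above every WT cell for 2 genes (*Myl6* and *Myl12a*) and below for 1 (*Tubb4b*). Beside the shares of all probes given above (0.532% and 0.118%), this held over probes well above background in at least 1 cell for 1.1% and 0.242%. Over the 4108 probes well above background and above the floor in all 8 cells, the population that *Myl6*, *Myl12a* and *Tubb4b* belong to with 19 other members, the shares were 5.33% higher and 0.341% lower. Counts of 1 to 3 genes in a list of 45 change with a single cell. Without WT cell 1, there was 1 gene at least 5-fold higher (*Arpc1a*, 2.79), where all probes had 1.17%, and 6 at least 5-fold lower (*Arpc1b*, *Arpc5*, *Arpc5l*, *Capzb*, *Tubb2a* and *Tubb2b*), where all probes had 2.22%. No overlap then remained for 4 genes higher in KO (*Myl6*, *Myl12a*, *Myl12b* and *Tmsb10*), against 1.23% of all probes, and for *Tubb4b* lower, against 0.537%.

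Over the whole list, the mean was higher in KO cells for 20 genes, lower for 19 and equal for 6, with a median difference of 0, which is also the median over all probes. The bright and the variable genes differed in this respect. The 22 members above the floor in all 8 cells had a median difference of 0.39, with 16 higher and 6 lower in KO cells, beside a median of 0.29 and 68.8% higher over the 4108 probes of that kind. For the 7 members with a mean log2 signal of at least 15, a line drawn after the values were seen, all differences were positive, with a median of 0.46, but so were 90.5% of the 725 probes in that range, with a median of 0.63. The differences of *Myl6* (1.17), *Actg1* (0.73) and *Tubb5* (0.64) were above that median, and those of *Vim* (0.46), *Tuba1b* (0.31), *Cfl1* (0.17) and *Tmsb10* (0.10) were below it. Of those 725 probes, 10.3% had every KO cell above every WT cell. Of the 17 members at the floor in some cells only, 13 had a lower and 4 a higher KO mean, with a median of -0.76. Probes of that kind were lower in 48.6% with a median of 0.02. The median SD of these 17 members was 2.47, well above the size of their median difference. All 17 were read in the same 8 cells, so the count is not repeated evidence of a direction.

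The members differed widely in how far they varied from cell to cell. Among the 28 members well above background in all cells, the median SD was 0.80, near the 0.72 of all 7570 such probes. The 7 brightest members, *Tuba1b*, *Tubb5*, *Actg1*, *Vim*, *Myl6*, *Tmsb10* and *Cfl1*, had SDs from 0.34 to 0.64 (median 0.58, against 0.64 for all probes as bright). The 15 members below a mean of 15 that were above the floor in all cells had SDs from 0.40 to 3.59, with a median of 1.16 against 0.90 for all such probes. *Tubb6* and *Tuba1a* were at the top of this range, while *Pfn1* and *Tuba4a*, with mean signals of 11.18 and 14.04, had SDs of 0.47 and 0.40.

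**Figure D4:**
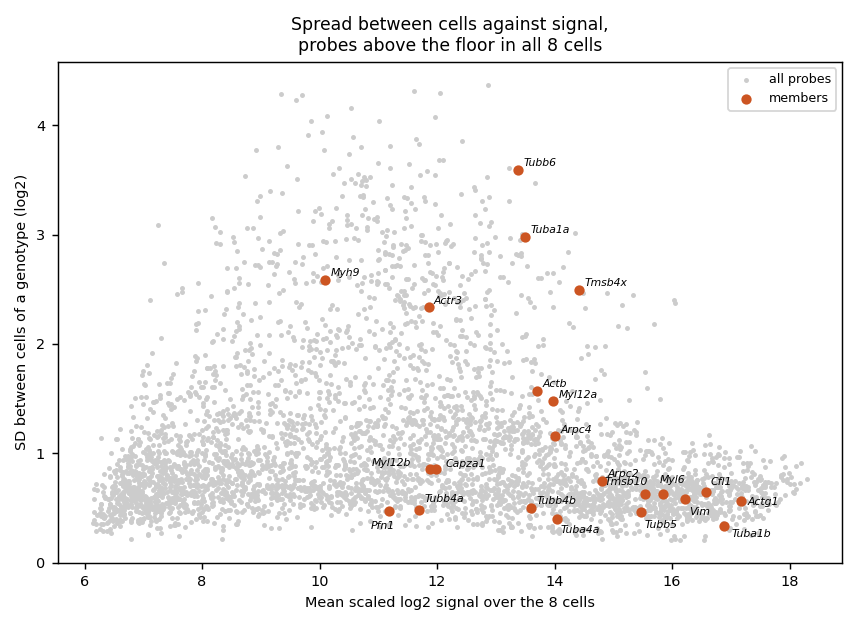
SD between cells of a genotype against the mean log2 signal over the 8 cells, for the 22 cytoskeleton genes (orange) and all 4108 probes (grey) above the floor in all cells. The brightest members lie low with the other bright probes, and *Tubb6*, *Tuba1a*, *Myh9*, *Tmsb4x* and *Actr3* lie high for their signal.

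Different probes of 1 gene gave the same pattern over the cells for some genes and not for others. Of 23 additional probes, of 16 genes, 11 (of 8 genes) had a Pearson's r of at least 0.9 with the probe used, 7 had a lower r, and 5 were at the floor in all 8 cells. The additional probe of *Tuba1a*, placed on chromosome 12, followed the first with r above 0.999 and gave a difference of 2.51, including the low signal in WT cell 1. The pairs of *Tuba1c*, *Tmsb10* and *Myl6* probes had r of 0.998, 0.999 and 0.981, and that of *Tuba1b* had 0.91. The brightest *Actg1* probe had r of 0.91 to 0.98 with 4 others, of which the probe at the gene itself differed by 0.51, and all 5 differences were between 0.47 and 0.73. Other pairs diverged, such as the *Cfl1* probe on chromosome 8, with r of -0.25 and a signal lower by a median of 5.24, and the second *Arpc4* probe, which had r of 0.09, differed by -0.01 and rose above the floor in 3 cells. The second probes of *Capzb*, *Cfl2* and *Myh10* and 1 of *Capza1* were at the floor in all 8 cells while the probe used was not. These r describe 8 cells that share their amplification, array and scaling.

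**Figure D5:**
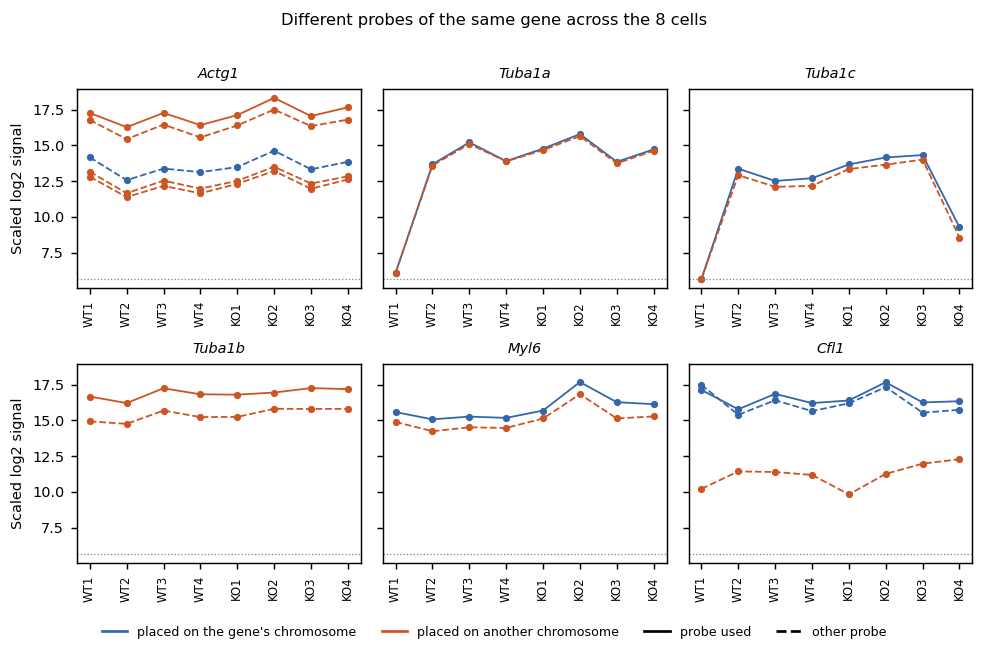
Scaled log2 signal of every probe of *Actg1*, *Tuba1a*, *Tuba1c*, *Tuba1b*, *Myl6* and *Cfl1* across the 8 cells (solid line, probe used; dashed, other probes; blue, placed on the chromosome of the gene; orange, on another chromosome). Probes of these 6 genes ran in parallel, including the drop of *Tuba1a* and *Tuba1c* in WT cell 1, except for 1 dim *Cfl1* probe.

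Pairs of different members did not move as a block. Over the 231 pairs of the 22 members above the floor in all cells, the median r across the 8 cells was 0.25, from -0.84 for *Myl12a* and *Tubb4b* to 0.98 for *Tmsb4x* and *Tuba1a*. In the first pair the genes left no overlap in opposite directions, and in the last both genes were low in WT cell 1. *Capza1* also ran against *Tubb4b* (-0.84) and with *Myl12a* (0.92). All r share the arrays, their scaling and the low depth of WT cell 1.

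Serum response factor is known to control many actin cytoskeleton genes through the CArG box, and the start regions of the members were searched for it on both strands, where it reads alike. A window of 250 bases before to 50 after the gene start was found in RefSeq (GRCm38.p6) for 38 of the 45 members, and 3 of these held a match (*Actg1*, *Arpc4* and *Myl6*, 7.89%), beside 488 of 27025 genes (1.81%). The 250 bases before the start of each are shown with the box in capitals, on the strand of the gene.
Actg1, chr11:120348496-120348745, minus strand: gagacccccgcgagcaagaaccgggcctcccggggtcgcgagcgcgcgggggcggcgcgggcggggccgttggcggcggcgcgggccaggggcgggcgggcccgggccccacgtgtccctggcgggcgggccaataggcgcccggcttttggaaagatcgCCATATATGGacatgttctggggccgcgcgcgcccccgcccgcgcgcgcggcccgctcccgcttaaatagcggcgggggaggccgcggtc
Arpc4, chr6:113377863-113378112, plus strand: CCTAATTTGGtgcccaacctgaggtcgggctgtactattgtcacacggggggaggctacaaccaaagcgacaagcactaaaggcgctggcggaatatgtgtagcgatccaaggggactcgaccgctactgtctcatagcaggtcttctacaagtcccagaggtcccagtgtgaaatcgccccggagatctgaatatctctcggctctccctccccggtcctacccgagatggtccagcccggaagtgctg
Myl6, chr10:128493010-128493259, minus strand: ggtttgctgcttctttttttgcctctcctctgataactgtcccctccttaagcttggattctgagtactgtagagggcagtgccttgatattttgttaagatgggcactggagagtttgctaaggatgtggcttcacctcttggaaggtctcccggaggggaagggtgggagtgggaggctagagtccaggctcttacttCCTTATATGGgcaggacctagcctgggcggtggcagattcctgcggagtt
The genes with the box did not share a direction, with differences of 0.73 for *Actg1*, -1.93 for *Arpc4* and 1.17 for *Myl6*. A match describes the letters only.

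Of 60 further cytoskeleton genes grouped by role, 53 were well above background in at least 1 cell and 13 in all 8. The mean was higher in KO cells for 27, lower for 22 and equal for 11, with a median difference of 0. A difference of at least 5-fold was found for 6 genes higher and 2 lower in KO cells, where all probes had 1.37% and 1.38%, and those well above background in at least 1 cell 2.83% and 2.85%. Among factors that activate the Arp2/3 complex, *Cttn* (cortactin) had signals of 5.64, 9.28, 5.64 and 11.02 in WT and of 13.17, 13.84, 13.63 and 11.56 in KO cells. Every KO cell was above every WT cell, and the difference was 5.15 (SD 2.04). This probe is placed on another chromosome than *Cttn*, and with only probes on the chromosome of their gene 5 of the further genes were at least 5-fold higher. *Brk1*, a subunit of the WAVE regulatory complex, was high in all KO cells (11.77 to 13.53) and in WT cell 2 (13.33) but at 5.64 to 6.53 in the other WT cells (difference 4.98, SD 2.68).

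Of 8 microtubule regulators, 3 were at least 5-fold higher in KO cells. *Ckap5*, a microtubule polymerase, differed by 3.63 (SD 2.40), *Mapre1* by 2.70 (SD 3.04) and *Mapre2* by 2.43 (SD 2.39), with at least 1 KO cell within the range of the WT cells for each. Without WT cell 1 *Mapre2* differed by 1.37, below 5-fold. Of the other 5, *Stmn1* differed by 1.26, *Map4* by -1.85 and *Clasp1* by -2.02, and *Clasp2* and *Mapre3* were at the floor in all cells. *Krt18*, an epithelial keratin, was well above background in no WT cell. Its floored KO mean was 5.60-fold higher, mainly through KO cell 4 (14.94). This is not a bound, as KO cells 1 and 3 were also at the floor. *Tubg1*, the gamma-tubulin that nucleates microtubules, had signals of 14.92, 12.75, 9.59 and 11.66 in WT and of 6.78 followed by the floor in 3 KO cells, so that it left no overlap, with a difference of -6.30 (SD 1.62). *Rdx* (radixin), which ties actin to the membrane, differed by -2.87 (SD 2.08), and its cells overlapped. *Dstn* (destrin), a relative of cofilin, did not reach 5-fold but left no overlap, at 5.64 to 11.27 in WT and 11.54 to 12.08 in KO cells (difference 2.2, SD 1.89, and 0.87 without WT cell 1). No overlap was therefore seen for 2 of the 60 genes in the higher and 1 in the lower direction, where all probes had 0.532% and 0.118%, and those well above background in at least 1 cell 1.1% and 0.242%.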

How the data were processed

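Single endocardium cells (4 WT, 4 *Sox17* KO) were profiled on 1-colour Agilent arrays (design 028005). The authors deposited scanner output of Feature Extraction 12.0.2.2, with intensity values corrected for background and trends within each array but not normalized between arrays, and probes placed on mm9.

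Control and outlier-marked spots were dropped, spots of a probe averaged, and 55295 of 55681 probes usable on all arrays kept (386 left out). A probe counted as well above background when over 50% of its spots did. Arrays were scaled to the 50th percentile of the 7570 probes that passed this on all 8, floored at 50 and log2-transformed. There were 0 saturated spots. Medians, counts and SDs describe cells, and array number limits precision.

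Members and lists were chosen with earlier results of these data known. Counts cover all 45 members, of which 1 is not reported here by itself or drawn. Members given cell by cell are those at least 5-fold apart, those without overlap and the 8 brightest. Also given so are the 4 largest and 4 smallest SDs among members well above background in all cells, and *Actb*, *Actg1*, *Acta2*, *Tmsb4x*, *Vim*, *Myh9* and *Myh10*. Of the 60 further genes, those at least 5-fold apart are described, some without a value for every cell. *Dstn* was added after its values were seen. Endocardium (10), cardiomyocyte (9), smooth muscle (3), blood (5) and endoderm (5) marker lists were summed. The steps were tested on simulated data. Alternatives were other percentiles, quantile scaling, normexp (offset 50), floors of 10 and 200, a floor before scaling, probe choice and leaving out each cell. Python 3.11.15, numpy 2.4.6, pandas 2.3.3, matplotlib 3.10.9 and R 4.3.3 with limma 3.58.1 were used.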

Additional observations from a re-analysis of the deposited data

Results flagged for a closer look

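In 11 of 59 groups of 4 cells, a single cell stood apart from the other 3, with a gap to its nearest neighbour, as a share of the range of the group, past the critical value of Dixon's test for 4 values. Chance gives about 1 in 20 for independent groups without ties, which these are not, since some were chosen for a large SD, some have cells tied at the floor, and all share the same cells. WT cell 1 was low for *Tmsb4x* (0.867), *Tuba1a* (0.831), the median of the genes for monomer binding and turnover (0.883) and the median of the alpha-tubulins (0.882), and high for *Tmsb10* (0.972) and *Tuba3b* (1, with the other 3 cells at the floor). KO cell 2 was high for *Cfl1* (0.903) and *Tmsb10* (0.832), and KO cell 3 was low for *Arpc1a* (0.933). *Acta2* was high in WT cell 2 (0.938, with 2 of the others at the floor) and in KO cell 4 (1, with 3 at the floor). WT cell 1 had the fewest probes well above background (11370), and its part in these values was not tested.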

How the results depend on the processing

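The 22 genes given cell by cell had 391 values under the alternatives, of which 377 were within 1 SD between cells of the value reported and 31 had the other sign. Members at least 5-fold lower in KO cells numbered 2 under the 75th percentile, the percentile of all probes and quantile scaling, 3 with a floor of 10 and 0 with a floor of 200, and members at least 5-fold higher numbered 1 under quantile scaling. No overlap with the higher signal in KO held for 1 member under the 75th percentile, the percentile of all probes and quantile scaling, which was *Myl12a* in each, and in the lower direction for 2 under the 75th percentile and normexp, 3 under quantile scaling, and 0 when only probes on the chromosome of the gene were used, an alternative chosen after seeing the data that leaves out the *Tubb4b* probe. Of the 60 further genes, those at least 5-fold lower numbered 1 under normexp, a floor of 200 and the mean of all probes, 5 with a floor of 10 and 0 with only probes detected in all cells, and those at least 5-fold higher numbered 3 with a floor of 200 and 0 with only probes detected in all cells. The difference for vimentin was -0.22 under quantile scaling. The median difference of the 7570 common probes was 0.11 and ran from -0.02 (75th percentile) to 0.29 (floor of 10), so small differences are relative to that shift. When 1 cell at a time was left out, 1 to 5 members were at least 5-fold higher (1 without WT cell 1, 5 without WT cell 2) and 0 to 6 lower (0 without WT cell 4, 6 without WT cell 1), 2 to 4 left no overlap higher (4 without WT cell 1 or KO cell 4) and 1 to 2 lower (2 without WT cell 2, KO cell 1 or KO cell 2), and of the further genes 5 to 10 were at least 5-fold higher (10 without KO cell 1) and 2 to 4 lower (4 without any of the WT cells, KO cell 3 or KO cell 4). No paired analysis was possible because each array is 1 cell, the numbers of the cells only name them, and no test between the genotypes was made. Values below the floor of 50 cannot be ordered, and 30.4% to 44.9% of the detected probes of an array lay there.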
